A study of Mus musculus with 8 samples.

Results

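The genes described here are 35 transcription factors of the nephron tubule, of the 37583 gene rows counted. They were chosen by symbol, and each symbol matched 1 Ensembl identifier and 1 row in each of the 8 libraries. All 35 passed the filter on low counts and were tested. They were set out by the segment of the tubule in which each is best known: 2 proximal, 5 of the loop of Henle, 2 of the distal convoluted tubule and 10 of the connecting tubule and collecting duct. A further 10 act in several segments or were not assigned to one, and 6 are also known from the stroma or the glomerulus.

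The series compared RNA-seq of whole kidneys of 4 mice labelled knockout, which carry b-actinCreERT2 and TFAP2Bfl/fl, with those of 4 littermates labelled WT. The first construct is a ligand-inducible Cre recombinase named for the beta-actin promoter, which is active throughout the body rather than in 1 tubule segment. The second is the floxed Tfap2b gene. Age, the inducing treatment, and whether the littermates carry floxed alleles or Cre are not stated in the labels. Libraries held 13435113 to 17930347 gene counts in the knockout-labelled and 13783857 to 17741722 in the wildtype-labelled group, and levels below are in CPM, gene counts divided by the TMM-scaled library size, unless stated.

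The targeted gene did not read as lost at the level of the whole gene. Tfap2b had 238, 266, 237 and 240.3 CPM in the knockout-labelled libraries, against 94.3, 105, 111 and 103 CPM in the wildtype-labelled ones (log2 fold change 1.25 ± 0.074 (SE), edgeR adjusted p = 4.18e-06). Reads from exons outside the floxed part are included in such a count, so that it checks neither the deletion nor the labels. Directions below are therefore those of the labelled libraries. Defining markers of all 4 tubule regions were present: Slc12a1 of the thick ascending limb averaged 1848 ± 133 CPM in the knockout-labelled and 2584 ± 184 CPM in the wildtype-labelled libraries and Slc12a3 of the distal convoluted tubule 617 ± 38.1 CPM in the knockout-labelled and 1383 ± 251 CPM in the wildtype-labelled libraries (SD, n = 4 each).

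The tubule of the kidney is built from a common set of early regulators, among them Pax2, Pax8, Lhx1 and Sall1. Regional factors then set its segments: Pou3f3 and the Irx genes in the loop and distal tubule, and Gata2, Gata3, Tfcp2l1, Grhl2 and ETS factors such as Ehf and Elf5 in the collecting duct. Many stay expressed in adult epithelium, where they hold segment-specific transporter genes on. AP-2 factors such as Tfap2b bind GC-rich elements whose consensus is written GCCNNNGGC.

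That consensus was looked up in the promoter windows of the RefSeq table (GRCm38.p6), each 300 bases long, from 250 bases before to 50 after a gene's start. The element reads the same on both strands. A window was found for 26 of the 35 factors, and 10 of the 26 (38.5%) held at least 1 match, against 18.5% of the 27025 genes with a window. Some genes had more than 1 window, and a match in any of them counted. By window, 28.6% of those of the factors held a match, against 16.6% of all 32851 windows. The median GC content of the factors' windows was 61.7%, against 52.7% for all windows. Among factors with a window, a match was held by 4 of the 6 that rose, 1 of the 3 that fell and 5 of the 17 that passed no threshold in the test below. For Gata2 and Pax2, which rose, and Sall1, which passed no threshold, only some windows held a match. The number of windows per gene was not allowed for. Shown are Gata3 (3 matches) and Tfcp2l1 (1 match), which rose, and Emx1 (1 match), which fell, with the matches in capitals.
Gata3 (chr2:9878551-9878850, minus strand): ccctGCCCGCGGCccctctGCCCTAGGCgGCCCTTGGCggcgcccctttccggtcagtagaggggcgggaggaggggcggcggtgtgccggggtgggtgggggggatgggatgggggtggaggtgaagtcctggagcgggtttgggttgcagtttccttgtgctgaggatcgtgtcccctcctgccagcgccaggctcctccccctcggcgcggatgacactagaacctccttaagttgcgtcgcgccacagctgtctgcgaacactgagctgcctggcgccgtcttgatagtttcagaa
Tfcp2l1 (chr1:118627695-118627994, plus strand): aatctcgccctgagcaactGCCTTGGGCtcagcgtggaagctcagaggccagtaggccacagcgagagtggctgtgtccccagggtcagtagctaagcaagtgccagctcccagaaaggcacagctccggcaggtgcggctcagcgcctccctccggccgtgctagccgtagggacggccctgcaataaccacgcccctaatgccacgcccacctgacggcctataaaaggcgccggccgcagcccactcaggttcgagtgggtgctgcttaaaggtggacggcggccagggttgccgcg
Emx1 (chr6:85187681-85187980, plus strand): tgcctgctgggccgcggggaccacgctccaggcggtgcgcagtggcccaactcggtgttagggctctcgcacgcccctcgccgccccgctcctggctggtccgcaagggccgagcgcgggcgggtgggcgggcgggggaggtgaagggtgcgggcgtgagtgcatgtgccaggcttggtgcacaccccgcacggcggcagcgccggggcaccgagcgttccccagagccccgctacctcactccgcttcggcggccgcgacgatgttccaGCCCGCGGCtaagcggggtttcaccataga
A match describes these letters only and is not evidence of binding.

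The factors that were higher in the knockout-labelled libraries were 5 of the collecting duct (Gata2, Gata3, Tfcp2l1, Grhl2 and Ehf) and 3 of several segments (Pax2, Pax8 and Sim1). Those that were lower were Prox1 of the loop, Emx1 of the distal convoluted tubule and Lhx1, which was assigned to no single segment. Of the 35 factors, 8 rose (22.9%) and 3 fell (8.57%), by edgeR's quasi-likelihood test at an adjusted p (Benjamini-Hochberg, whole table) under 0.05. Of all 15228 genes tested, 6.23% rose and 5.7% fell, 11.9% in all. The median log2 fold change was 0.08 over the factors and 0.00 over all genes. The groups of libraries did not overlap for 13 factors (37.1%), 9 higher and 4 lower in the knockout-labelled group; for all genes the share was 18.5%, with 9.42% higher and 9.05% lower. Library totals alone as the scaling moved the median of all genes to 0.11, with 10 factors rising and 3 falling. Whole kidney RNA cannot tell fewer cells of a segment from less RNA of a gene per cell. The labels do not say whether littermates came from 1 litter, and p-values measure only the spread between these libraries.

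Per kilobase of exon, the factors covered a wide range of levels, given here in the order of the wildtype-labelled libraries. Tfcp2l1 was the highest, with means of 81.5 and 63.6 CPM per kilobase in the knockout-labelled and wildtype-labelled libraries. Maf followed with 34.5 and 41.7, Klf15 with 33.3 and 39.6, Tbx2 with 28.3 and 29.7 and Emx1 with 19.7 and 28.0 CPM per kilobase in the same order. The order in the knockout-labelled libraries was not the same, with Emx1 below Sall1, Elf3, Pou3f3, Emx2, Pax8 and Irx1. Lowest in the wildtype-labelled libraries were Irx2, with 0.577 and 0.422, and Tshz3, with 0.565 and 0.502 CPM per kilobase. In the knockout-labelled libraries Tshz2 was lower than both, at 0.559, against 0.596 CPM per kilobase in the wildtype-labelled ones. Lengths are those of the exons of GENCODE M21 on GRCm38, whereas the counts were made on mm9.

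**Figure D1:**
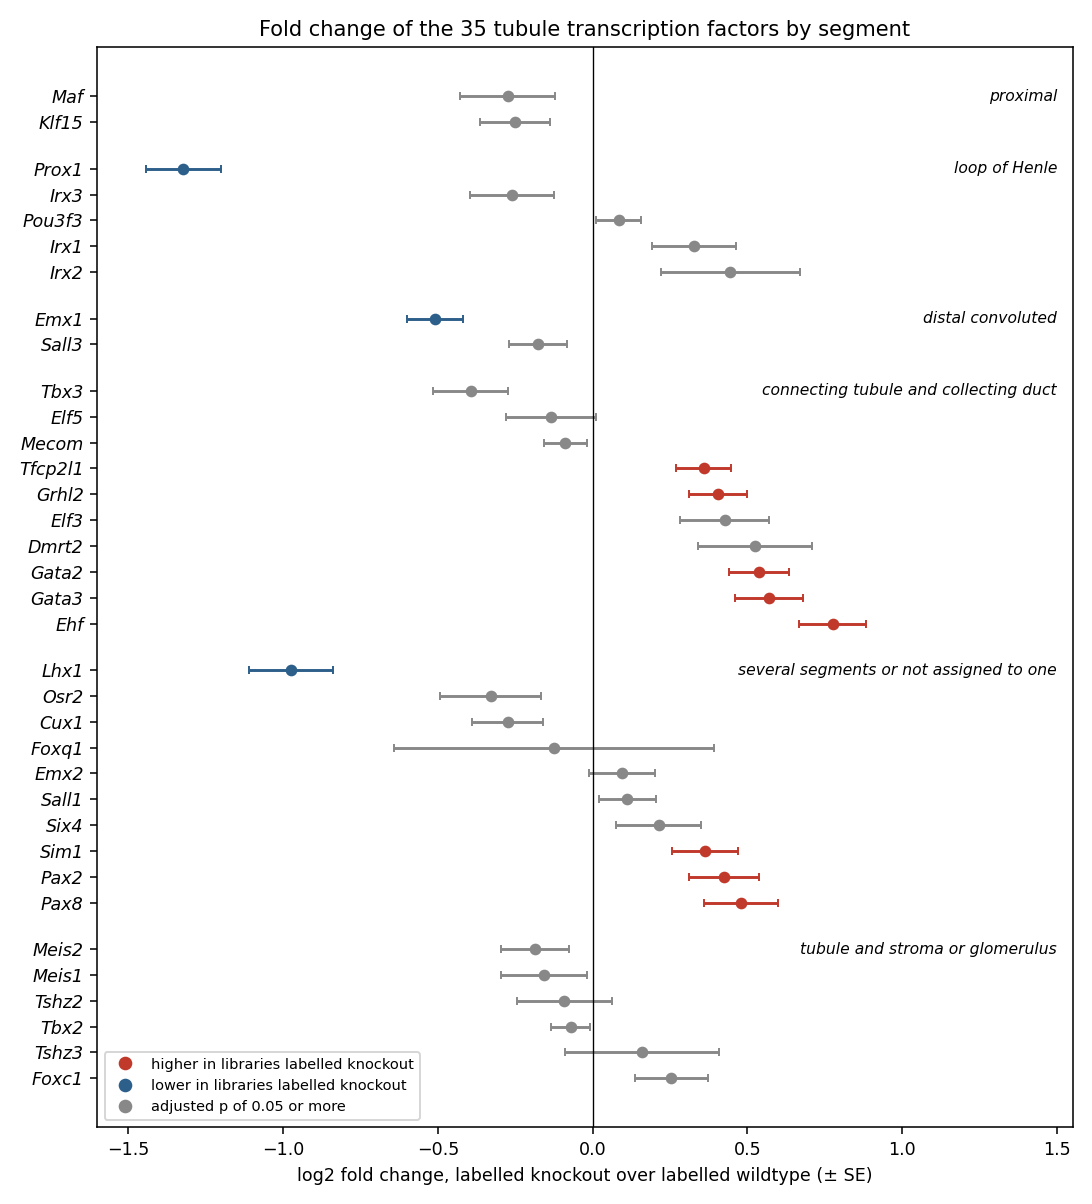
Log2 fold change (x axis, knockout-labelled over wildtype-labelled libraries, ± SE) of the 35 transcription factors, listed down the page by segment. Red points are the 8 factors that rose and blue points the 3 that fell at adjusted p under 0.05, and grey points are the other 24. Red points lie in the connecting tubule and collecting duct group and among the factors of several segments, and the lowest blue point is Prox1 at -1.32.

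Neither proximal factor passed edgeR's test, DESeq2 or limma voom after adjustment, and 1 of the 2, Klf15, was lower at an unadjusted p under 0.05 in edgeR. Maf, a large Maf family factor of the proximal tubule, had 235, 283, 334 and 285 CPM in the knockout-labelled libraries, against 410.4, 400.5, 271 and 294 CPM in the wildtype-labelled ones (log2 fold change -0.27 ± 0.15 (SE), edgeR adjusted p = 0.278). Wildtype 1 and wildtype 2 were well above the other wildtype-labelled libraries, and the groups overlapped. Klf15, a Krüppel-like factor known for metabolic control and expressed also in podocytes, had 70.7, 99.9, 97.3 and 104 CPM in the knockout-labelled libraries, against 109.7, 101, 110.1 and 121 CPM in the wildtype-labelled ones (log2 fold change -0.25 ± 0.11 (SE), edgeR adjusted p = 0.181). Its lowest value was in knockout 1, and the groups overlapped by a narrow margin. Of 10 proximal transport and endocytosis markers, 3 fell and none rose, with a median log2 fold change of -0.61.

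Klf15 is also known as a target of the circadian clock, and 2 of 8 clock output genes fell in the knockout-labelled libraries. A clock score was taken as the average log2 CPM of 8 clock output genes less that of 3 clock activator genes. It was -0.76 ± 1.16 in the knockout-labelled and 1.86 ± 1.38 in the wildtype-labelled libraries (SD, n = 4 each; exact two-sided permutation p = 0.0571). Knockout 1, at 0.91, lay above wildtype 1, at 0.15. With that score as a term in the fit, Maf fell, with a log2 fold change of -0.75 (edgeR adjusted p = 0.0149), and Klf15 did not pass (-0.45, adjusted p = 0.183). In that fit 0 of the 35 factors rose and 3 fell, Prox1, Lhx1 and Maf. Of all genes, 473 rose and 233 fell, 706 in all. The log2 fold changes of the factors that had risen remained positive in that fit, at 0.60 for Ehf, 0.41 for Grhl2, 0.35 for Gata2, 0.34 for Gata3, 0.32 for Pax2, 0.31 for Tfcp2l1, 0.31 for Sim1 and 0.19 for Pax8. The median of the collecting duct factors was 0.33 with the score and 0.42 without it. The SE of every factor that had risen was larger with the score, at 0.15 against 0.094 for Grhl2 and 0.14 against 0.098 for Gata2. The log2 fold change of Grhl2 was 0.40 without the score, so that it did not shrink. The score moved largely with the labels, and a call can end in that fit through a wider SE alone. At an unadjusted p under 0.05 the edgeR fit with the score held 4 factors higher and 7 lower, against 11 and 6 without it. The share of all genes at that unadjusted threshold was not counted, so these numbers are not read as a result. No other tool was run with the score. The part of the clock score in the results was not tested beyond that fit.

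**Figure D2:**
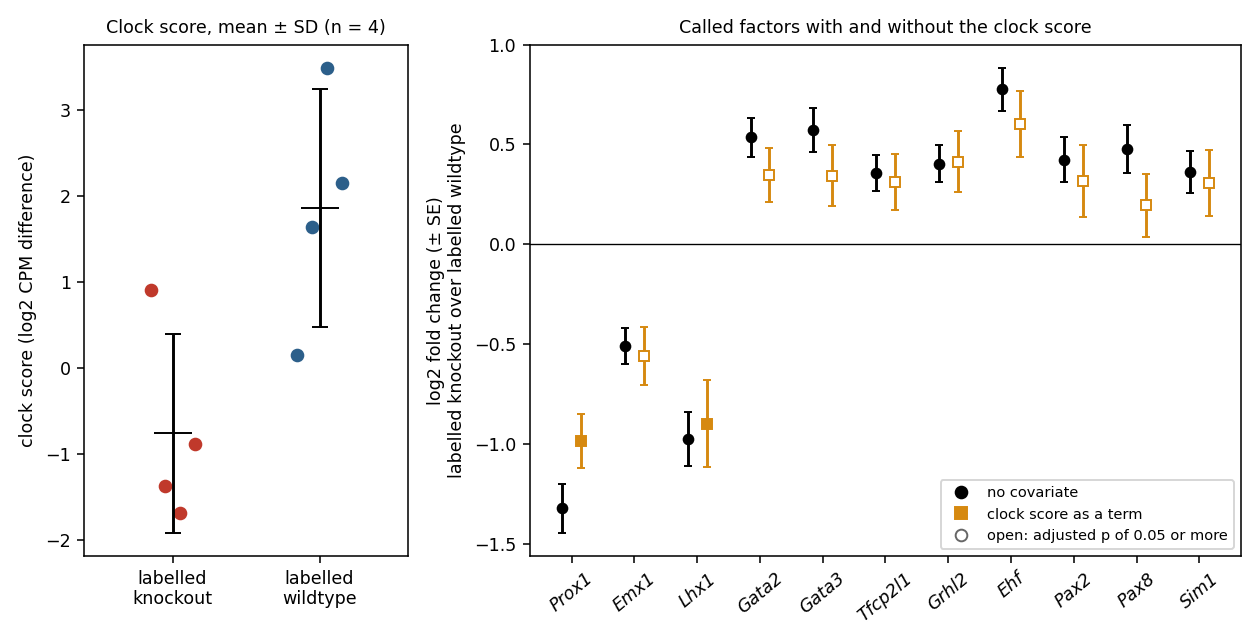
Left, clock score of each library (y axis, log2 CPM of clock output genes minus that of activator genes) with the mean ± SD of 4 libraries a group. Right, log2 fold change (y axis, knockout-labelled over wildtype-labelled, ± SE) of the 11 called factors without a covariate (circles) and when the clock score is a term (squares), open where adjusted p is 0.05 or more. Prox1 and Lhx1 are the 2 whose squares stay filled.

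Among the loop factors 1 of 5 fell, Prox1, and none rose. Prox1, a homeodomain factor known above all from lymphatic endothelium and found also in loop epithelium, had 13.6, 11.9, 10.6 and 10.9 CPM in the knockout-labelled libraries, against 23.7, 31.1, 32.3 and 30.5 CPM in the wildtype-labelled ones. Every knockout-labelled value lay under the lowest wildtype-labelled one, that of wildtype 1, and the difference was the largest of the 35 factors in absolute size (log2 fold change -1.32 ± 0.12 (SE), edgeR adjusted p = 8.71e-05). Its call held under all 18 alternative settings, with log2 fold changes of -1.41 to -0.98. The 5 lymphatic endothelial markers tested summed to 31.0 to 37.5 CPM in the knockout-labelled and 37.2 to 50.2 CPM in the wildtype-labelled libraries. Of them 1 fell, Reln (-1.31 ± 0.26, adjusted p = 0.01), while Lyve1 had 1.70 against 1.29 CPM and a log2 fold change of 0.39 ± 0.26. Their part in the fall of Prox1 was not tested.

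The other loop factors did not pass. Pou3f3, also called Brn1 and needed for the growth of the loop, had 168, 192, 185 and 197 CPM in the knockout-labelled libraries, against 176, 164, 186 and 173 CPM in the wildtype-labelled ones (log2 fold change 0.08 ± 0.073 (SE), edgeR adjusted p = 0.503). The groups overlapped, with knockout 2 and knockout 4 above every wildtype-labelled library. Irx1, Irx2 and Irx3 are Iroquois homeodomain factors known from amphibian and fish kidneys as regulators of the middle nephron. Irx1 had 42.3, 59.2, 57.6 and 56.8 CPM in the knockout-labelled libraries, against 38.0, 35.7, 51.1 and 47.0 CPM in the wildtype-labelled ones (log2 fold change 0.33 ± 0.14 (SE), edgeR adjusted p = 0.152). Knockout 1 stood apart from the other 3 of its group, and without it Irx1 rose (0.43, adjusted p = 0.0395). Irx3 leaned the other way, with 46.8 to 61.2 CPM in the knockout-labelled and 50.3 to 79.2 CPM in the wildtype-labelled libraries and a log2 fold change of -0.26 ± 0.14 (adjusted p = 0.254). Irx2 had only 26 to 37 counts in the knockout-labelled and 18 to 26 in the wildtype-labelled libraries, so that its 0.44 ± 0.22 (adjusted p = 0.232) rests on little depth.

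Of 10 markers of the loop, 7 fell and none rose, with a median log2 fold change of -0.62. The level of each factor was therefore also taken relative to the mean log2 CPM of the markers of its segment in the same library. Pou3f3 stood at 0.50 ± 0.08 in the knockout-labelled and -0.17 ± 0.15 in the wildtype-labelled libraries relative to the loop markers (SD, n = 4 each), a difference of 0.67 (exact two-sided permutation p = 0.0286). For Irx1 and Irx2 that difference was 0.92 and 0.99, with the groups not overlapping. For Irx3 it was 0.34 with overlapping groups, and 0.51 without overlap against the median of the markers. For Prox1 it was -0.72, the opposite direction, again with no overlap; against the median of the markers in place of their mean it was -0.55 and the groups overlapped. Pou3f3, Irx1 and Irx2 themselves had log2 fold changes of 0.08, 0.33 and 0.44. Much of each upward difference therefore lies in the fall of the markers. Such a value moves with the markers as well as with the factor. The lists were chosen with earlier results of these data known, so that these p-values are no independent support. Relative to the proximal markers, Maf and Klf15 had differences of 0.27 each, with overlapping groups, and of -0.04 each against the median. In all, 29 such comparisons were made over the 4 segments and 12 reached the smallest p that 4 against 4 allows, 0.0286. Adjusted over the 29, the smallest p was 0.0690, so that 0 passed. As no p could lie below 0.0286, no factor could pass this adjustment by itself, and its failure says little about any factor.

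**Figure D3:**
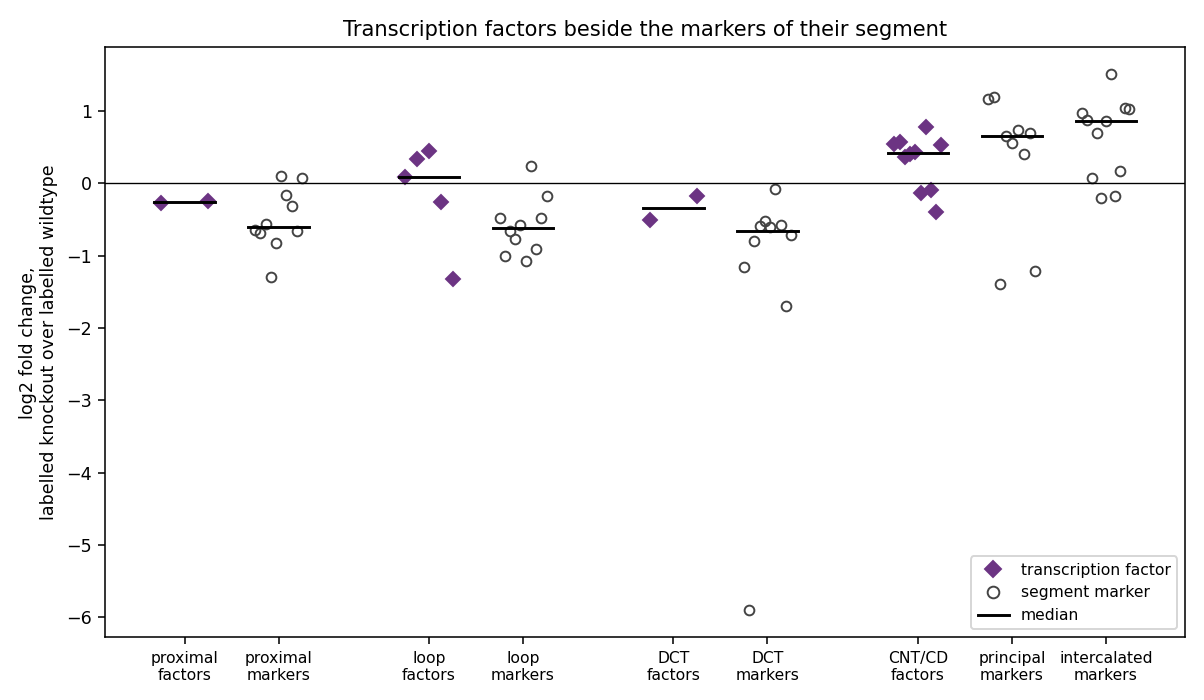
Log2 fold change (y axis, knockout-labelled over wildtype-labelled) of each transcription factor (diamonds) beside the tested markers of its segment (open circles), with black bars at the medians; DCT is the distal convoluted tubule, CNT the connecting tubule and CD the collecting duct. Loop factors have a median of 0.08 beside loop markers at -0.62, and collecting duct factors one of 0.42 beside principal cell markers at 0.66 and intercalated cell markers at 0.86.

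Of the 2 factors of the distal convoluted tubule, Emx1 fell and Sall3 did not pass. Emx1, an empty spiracles homeodomain factor, had 36.4, 45.4, 45.5 and 44.6 CPM in the knockout-labelled libraries, against 59.1, 61.4, 68.0 and 56.2 CPM in the wildtype-labelled ones (log2 fold change -0.51 ± 0.090 (SE), edgeR adjusted p = 0.00468). All knockout-labelled libraries were lower than all wildtype-labelled ones, and knockout 1 was the lowest. With the clock score as a term its log2 fold change was -0.56 with a wider SE of 0.15, and the call ended (edgeR adjusted p = 0.0561). Sall3, a spalt zinc finger factor, had 14.8, 16.7, 15.3 and 15.8 CPM in the knockout-labelled libraries, against 17.6, 18.3, 19.1 and 15.8 CPM in the wildtype-labelled ones. Its groups met at wildtype 4 (log2 fold change -0.18 ± 0.093 (SE), edgeR adjusted p = 0.254). Of 10 markers of this segment 9 fell and none rose, with a median of -0.66 and -1.16 ± 0.12 for Slc12a3. Relative to the mean of these markers, Emx1 and Sall3 stood 0.75 and 1.09 log2 units higher in the knockout-labelled libraries (exact p = 0.0286 each, adjusted p = 0.0690 over the 29 comparisons). Much of that came from 1 marker, Pvalb, a calcium-binding protein of this segment, at -5.90 ± 0.63. Without Pvalb, an alternative chosen after the data were seen, the difference was 0.24 for Emx1, with overlapping groups (exact p = 0.114), and 0.58 for Sall3, with none (exact p = 0.0286). The median of the markers in place of their mean gave 0.26 and 0.60.

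Of 10 factors of the connecting tubule and collecting duct, 5 rose, none fell and 5 did not pass, with a median log2 fold change of 0.42. Ehf, an ETS factor of epithelia, rose the most, with 74.4, 110.1, 90.6 and 95.1 CPM in the knockout-labelled libraries, against 55.2, 54.8, 57.3 and 48.9 CPM in the wildtype-labelled ones (log2 fold change 0.78 ± 0.11 (SE), edgeR adjusted p = 0.00136). The lowest knockout-labelled library was well above the highest wildtype-labelled one. Gata3, a zinc finger factor of the ureteric bud lineage, had 51.0, 71.5, 58.0 and 58.4 CPM in the knockout-labelled libraries, against 43.4, 43.8, 39.5 and 34.5 CPM in the wildtype-labelled ones (log2 fold change 0.57 ± 0.11 (SE), edgeR adjusted p = 0.00744). Gata2, its relative, known for its part in expression of the water channel gene Aqp2, had 59.2, 76.6, 63.6 and 61.9 CPM in the knockout-labelled libraries, against 50.1, 40.5, 42.3 and 47.3 CPM in the wildtype-labelled ones (log2 fold change 0.54 ± 0.098 (SE), edgeR adjusted p = 0.00535). For both GATA genes the groups were separate and knockout 2 was the highest library. Aqp2 rose as well, with 447, 989, 743 and 1061 CPM in the knockout-labelled libraries, against 363, 284, 486 and 309.9 CPM in the wildtype-labelled ones (log2 fold change 1.17 ± 0.28 (SE), edgeR adjusted p = 0.0328), although knockout 1 lay below wildtype 3 and the groups overlapped.

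Tfcp2l1, a CP2 family factor that patterns principal and intercalated cells of the collecting duct, had 707, 882, 780.0 and 707 CPM in the knockout-labelled libraries, against 588, 595, 631 and 585 CPM in the wildtype-labelled ones (log2 fold change 0.36 ± 0.089 (SE), edgeR adjusted p = 0.0244). Knockout 2 was the highest library and the wildtype-labelled values lay close together. Grhl2, a grainyhead factor of the epithelial barrier, had 28.2, 33.0, 26.0 and 31.6 CPM in the knockout-labelled libraries, against 22.4, 20.4, 22.8 and 24.0 CPM in the wildtype-labelled ones (log2 fold change 0.40 ± 0.094 (SE), edgeR adjusted p = 0.0187). Its groups were also separate, by a few CPM. Both calls ended when any of several libraries was left out, with log2 fold changes of 0.29 to 0.35 for Tfcp2l1 and 0.35 to 0.39 for Grhl2 in those fits. Tfcp2l1 did not pass without knockout 2 (adjusted p = 0.058), wildtype 1 (0.06), wildtype 2 (0.0616) or wildtype 4 (0.064). Grhl2 did not pass without knockout 2 (adjusted p = 0.0635), knockout 4 (0.0575), wildtype 2 (0.0527) or both knockout 1 and knockout 4 (0.0925). A gene annotated on the other strand of Grhl2, Gm16136, shares 169 exon bases with it and had means of 9.71 CPM in the knockout-labelled and 7.94 CPM in the wildtype-labelled libraries. The deposited tables are named as not stranded, so that reads of such overlaps cannot be told apart by strand. Records that the counter held as ambiguous, 2.17% to 2.42%, were not counted for any gene. How many of them fall in such overlaps is not known. Of the 35 factors, 14 share exon bases with a gene on the other strand.

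**Figure D4:**
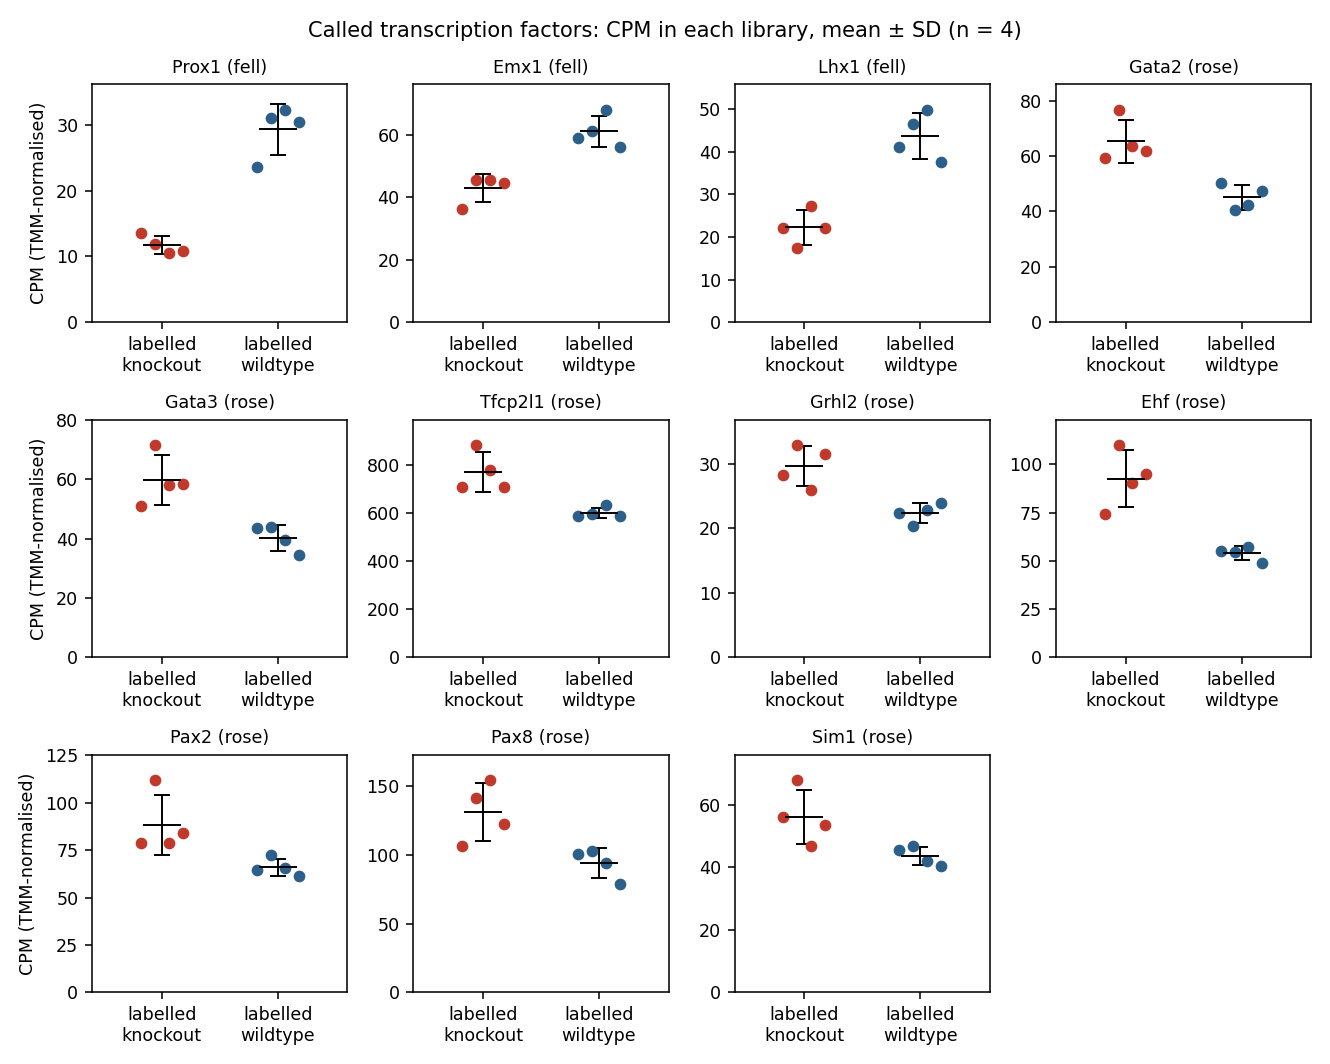
CPM after TMM scaling (y axes, from 0) of the 3 factors that fell and the 8 that rose, in each of the 4 knockout-labelled (red, left) and 4 wildtype-labelled (blue, right) libraries, with the mean ± SD of each group. The 2 groups do not overlap in any panel, and knockout 2 is the highest library for Gata2, Gata3, Tfcp2l1, Grhl2, Ehf, Pax2 and Sim1.

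The rest of the collecting duct factors did not pass and pointed both ways. Elf3, an epithelial ETS factor, had 47.3, 67.3, 51.8 and 58.6 CPM in the knockout-labelled libraries, against 49.9, 33.7, 37.1 and 46.8 CPM in the wildtype-labelled ones (log2 fold change 0.43 ± 0.14 (SE), edgeR adjusted p = 0.0842), with knockout 1 under wildtype 1. With library totals as the scaling Elf3 rose (0.53, adjusted p = 0.0361), and DESeq2 called it too (adjusted p = 0.0373). Dmrt2, a doublesex-related factor found in intercalated cells, had 13.9, 20.7, 11.7 and 14.1 CPM in the knockout-labelled libraries, against 11.7, 7.96, 11.1 and 11.3 CPM in the wildtype-labelled ones. Its groups were separate by a very small margin, and the test gave 0.52 ± 0.18 (adjusted p = 0.0889). Dmrt2 rose without knockout 3 (adjusted p = 0.0499) and with library totals as the scaling (adjusted p = 0.0489).

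Tbx3, a T-box repressor, was the collecting duct factor with the most negative value, with 11.2, 13.6, 11.0 and 13.5 CPM in the knockout-labelled libraries, against 16.0, 19.0, 15.3 and 14.5 CPM in the wildtype-labelled ones (log2 fold change -0.39 ± 0.12 (SE), edgeR adjusted p = 0.058). The groups did not overlap, and DESeq2 called the difference (adjusted p = 0.0335). Elf5, an ETS factor of principal cells, had 7.27 to 10.1 CPM in the knockout-labelled and 7.76 to 10.7 CPM in the wildtype-labelled libraries and -0.13 ± 0.15 (adjusted p = 0.599). Mecom, a zinc finger factor of the distal nephron and collecting duct, had 86.2 to 101 CPM in the knockout-labelled and 96.3 to 108 CPM in the wildtype-labelled libraries and -0.09 ± 0.070 (adjusted p = 0.458), a value that turned to 0.02 with library totals as the scaling.

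Markers of the collecting duct were set beside these 10 factors. Of 9 tested principal cell markers 7 rose and 1, Calb1, fell, with a median of 0.66. Of 11 intercalated cell markers 7 rose and none fell, with a median of 0.86. Relative to principal cell markers Ehf stood at -1.05 ± 0.07 in the knockout-labelled and -1.49 ± 0.14 in the wildtype-labelled libraries (SD, n = 4 each), a difference of 0.44 (exact p = 0.0286). Tbx3 stood at -3.94 ± 0.10 in the knockout-labelled and -3.23 ± 0.28 in the wildtype-labelled libraries, a difference of -0.71 (exact p = 0.0286). Gata2, Gata3, Tfcp2l1 and Grhl2 had differences of 0.21, 0.24, 0.03 and 0.08, each with overlapping groups. Against intercalated cell markers the same 4 had -0.09, -0.06, -0.27 and -0.22, of the opposite sign, and Ehf had 0.14. The groups did not overlap there for Tfcp2l1, nor for Elf5, Mecom and Tbx3, at -0.76, -0.71 and -1.01, and overlapped for Dmrt2, at -0.12. None of these passed adjustment over the 29 comparisons, which no factor could pass by itself. With the median of the intercalated cell markers in place of their mean, the groups overlapped for Tfcp2l1 (-0.15) and Elf5 (-0.64). They stayed apart there for Mecom (-0.59) and Tbx3 (-0.89). The median of the principal cell markers gave overlapping groups for Ehf (0.49) and Tbx3 (-0.66).

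The values relative to principal cells rested on 2 of the 9 markers that went against the rest, the water channel gene Aqp4 (-1.39 ± 0.40) and the calcium-binding protein gene Calb1 (-1.21 ± 0.092). Calb1 was listed as a principal cell marker but is not particular to these cells, being known also from the distal convoluted and connecting tubule. Without Aqp4 and Calb1, again chosen after the data were seen, the difference for Ehf was -0.00 (exact p = 1). Those for Gata2, Gata3, Tfcp2l1 and Grhl2 turned to -0.23, -0.20, -0.41 and -0.36, and those for Elf3 and Dmrt2 to -0.33 and -0.26. Tbx3 had -1.15, Elf5 -0.90 and Mecom -0.85. Leaving out 2 markers with negative fold changes lowers every such difference by construction. With the median of the 9 markers in place of their mean, Gata2, Gata3, Tfcp2l1, Grhl2 and Ehf had 0.26, 0.29, 0.08, 0.13 and 0.49. The groups overlapped for each of them. As the sign hung on the markers used, no direction relative to principal cells is given for the 5 factors that rose.

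Other cells that hold these factors were represented too. Gata3 is a T cell factor, and 7 T cell markers, of which none passed the test, summed to 16.0 to 71.3 CPM in the knockout-labelled and 10.2 to 20.6 CPM in the wildtype-labelled libraries. The highest sum was that of knockout 2, where 1 marker, Cd8a, had 58.0 CPM. Gata2 is a mast cell factor, and 5 mast cell markers summed to 0.895 to 2.40 CPM in the knockout-labelled and 1.13 to 2.67 CPM in the wildtype-labelled libraries, with no marker averaging 1 CPM in either group. Grhl2, Elf3, Ehf and Gata3 are also found in urothelium, for which 6 markers, of which 2 rose, summed to 42.2 to 55.4 CPM in the knockout-labelled and 29.0 to 45.0 CPM in the wildtype-labelled libraries. Of these 6 markers, 1 is also counted among the tubular injury markers below. The part of T cells and urothelium in these results was not tested.

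Of 10 factors of several segments, 3 rose and 1 fell. Lhx1, a LIM homeodomain factor required for the early nephron and retained in distal tubule, fell, with 22.0, 17.4, 27.3 and 22.2 CPM in the knockout-labelled libraries, against 41.1, 46.4, 49.8 and 37.6 CPM in the wildtype-labelled ones (log2 fold change -0.97 ± 0.13 (SE), edgeR adjusted p = 0.00136). The highest knockout-labelled library, knockout 3, was below the lowest wildtype-labelled one, and the call held under all 18 alternatives with log2 fold changes of -1.09 to -0.87. It was weakest with the clock score as a term (adjusted p = 0.0496). Pax2 and Pax8, paired-box factors that specify renal epithelium, rose together. Pax2 had 79.0, 112, 78.9 and 83.9 CPM in the knockout-labelled libraries, against 64.8, 72.3, 65.5 and 61.3 CPM in the wildtype-labelled ones (log2 fold change 0.42 ± 0.11 (SE), edgeR adjusted p = 0.033). Knockout 2 stood apart from the other 3 of its group. Pax8 had 107, 141, 154 and 122 CPM in the knockout-labelled libraries, against 100.3, 103, 94.2 and 79.0 CPM in the wildtype-labelled ones (log2 fold change 0.48 ± 0.12 (SE), edgeR adjusted p = 0.0272), with knockout 1 just above the wildtype-labelled range.

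Both PAX calls lay near the threshold and ended when any of several libraries was left out, with log2 fold changes of 0.39 to 0.53 for Pax2 and 0.39 to 0.48 for Pax8 in those fits. Pax2 did not pass without knockout 4 (adjusted p = 0.0605), wildtype 1 (0.0779), wildtype 3 (0.0795), wildtype 4 (0.086) or both knockout 1 and knockout 4 (0.0513). Pax8 did not pass without knockout 2 (adjusted p = 0.0824), knockout 3 (0.055), wildtype 3 (0.0666) or wildtype 4 (0.0642). Sim1, a bHLH-PAS factor known from the hypothalamus, had 56.1, 68.0, 47.0 and 53.6 CPM in the knockout-labelled libraries, against 45.4, 46.8, 41.9 and 40.6 CPM in the wildtype-labelled ones (log2 fold change 0.36 ± 0.11 (SE), edgeR adjusted p = 0.0468). Knockout 3 was only just above wildtype 2, and the call ended when any library except knockout 3 was left out, with adjusted p of 0.0647 to 0.116. Limma voom on all 8 libraries did not call it either (0.35, adjusted p = 0.0613).

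The remaining 6 of this group did not pass. Emx2, the relative of Emx1 that is required for the urogenital tract, had 53.7, 74.1, 75.2 and 68.7 CPM in the knockout-labelled libraries, against 59.8, 58.7, 69.4 and 66.4 CPM in the wildtype-labelled ones (log2 fold change 0.09 ± 0.11 (SE), edgeR adjusted p = 0.61), whereas Emx1 fell. The difference between the 2 genes' fold changes was not tested. Emx2 shares 264 exon bases with Emx2os on the other strand, which had means of 11.8 CPM in the knockout-labelled and 10.9 CPM in the wildtype-labelled libraries. Sall1, a spalt factor needed for kidney formation, had 119.6 to 154 CPM in the knockout-labelled and 119 to 142 CPM in the wildtype-labelled libraries and 0.11 ± 0.092 (adjusted p = 0.473). Six4, a homeodomain factor related to sine oculis of the fly, had 0.21 ± 0.14, and the zinc finger factor Osr2 had -0.33 ± 0.16 (adjusted p = 0.349 and 0.221).

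Cux1, a cut homeodomain factor, had 209, 146, 199 and 175 CPM in the knockout-labelled libraries, against 189, 226, 233 and 233 CPM in the wildtype-labelled ones (log2 fold change -0.27 ± 0.11 (SE), edgeR adjusted p = 0.147). Wildtype 1 was low and knockout 1 high for it, so that the groups overlapped. Foxq1, a forkhead factor, had the largest SD relative to its mean of the 35 factors, in both groups, with 42.5, 78.3, 81.9 and 34.8 CPM in the knockout-labelled libraries, against 23.4, 46.2, 82.5 and 106 CPM in the wildtype-labelled ones. Each group covered most of the other's range, and no difference was detectable at that spread (log2 fold change -0.12 ± 0.52 (SE), edgeR adjusted p = 0.908). Foxq1 shares 3200 of its 4843 exon bases with A530084C06Rik on the other strand, which averaged 1.09 CPM in the knockout-labelled and 0.88 CPM in the wildtype-labelled libraries.

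None of the 6 factors shared with stroma or glomerulus passed edgeR's test, DESeq2 or limma voom, also at an unadjusted p under 0.05 (0 of 6 in each), and their median log2 fold change was -0.08. Foxc1, a forkhead factor of podocytes and mesenchyme, had 27.7, 37.6, 27.0 and 32.1 CPM in the knockout-labelled libraries, against 30.1, 24.3, 24.4 and 25.5 CPM in the wildtype-labelled ones (log2 fold change 0.25 ± 0.12 (SE), edgeR adjusted p = 0.192). Tbx2, a T-box repressor, varied little, with 98.4 to 106 CPM in the knockout-labelled and 99.9 to 114 CPM in the wildtype-labelled libraries and -0.07 ± 0.064 (adjusted p = 0.517); its sign turned with library totals as the scaling, to 0.03. Meis1 and Meis2, homeodomain partners of Hox proteins, had -0.16 ± 0.14 and -0.19 ± 0.11. The teashirt zinc finger factors Tshz2 and Tshz3, the second of which is needed for ureter muscle, had -0.09 ± 0.15 and 0.16 ± 0.25 at 4.35 against 4.63 CPM and 3.08 against 2.74 CPM. In the same libraries 5 of 7 stromal markers rose and none fell, with sums of 648 to 1021 CPM in the knockout-labelled and 355 to 506 CPM in the wildtype-labelled libraries. Of 5 podocyte markers 2 fell and none rose, with sums of 368 to 491 CPM in the knockout-labelled and 464 to 623 CPM in the wildtype-labelled libraries. Their part in these values was not tested.

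A further list of 50 kidney epithelial transcription factors, of which 47 were tested, gave 9 rising and 2 falling, with a median of -0.00. The factors of smallest adjusted p among them, apart from Tfap2b itself, were Hmx2, an intercalated cell homeodomain factor at 1.77 ± 0.14, Etv4, an ETS factor of branching at 1.26 ± 0.19, and Foxi1, required for intercalated cells, at 1.03 ± 0.15 (adjusted p = 4.28e-05, 0.00197 and 0.0021). The 2 that fell, named after their values were seen, were Id4, an inhibitor of bHLH factors, at -0.78 ± 0.15 (adjusted p = 0.00941), and Hnf4a, a nuclear receptor of the proximal tubule, at -0.39 ± 0.11 (adjusted p = 0.0432).

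Several measures of the libraries moved with the groups. Macrophage markers summed to 223 to 316 CPM in the knockout-labelled and 153 to 182 CPM in the wildtype-labelled libraries, with 6 of 7 rising. Tubular injury markers, of which 6 of 7 rose, summed to 3099 to 3607 CPM in the knockout-labelled and 1714 to 2429 CPM in the wildtype-labelled libraries. The part of either list in the results for the factors was not tested. Adrenal markers stood out in 1 library: 7 of them summed to 222 CPM in knockout 4 and to 7.72 to 8.84 CPM in the other knockout-labelled libraries, against 6.01 to 7.23 CPM in the wildtype-labelled ones. Without knockout 4, 5 factors rose and 3 fell, as also without both knockout 1 and knockout 4. Without knockout 2 or without wildtype 4, 4 rose and 3 fell. TMM factors were 0.999 to 1.06 in the knockout-labelled and 0.951 to 0.973 in the wildtype-labelled libraries.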

How the data were processed

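Per the labels' protocols, RNA of whole kidneys was made into libraries with a kit that marks strand. The submitters' processing notes name STAR, HTSeq, edgeR and mm9, without versions or annotation. The deposited values are raw read counts per gene, 1 table per library, named by the authors as not stranded. Symbols were found for 32860 of the 37583 gene identifiers. Of all records 63.8% to 69.1% were assigned to genes; the 5 summary entries of the counter were left out (13.0% to 16.8% no feature, 2.17% to 2.42% ambiguous, 15.4% to 18.0% not unique, none in the other entries).

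The 15228 genes passing filterByExpr were scaled by TMM and tested two-sided with the quasi-likelihood test of edgeR 4.0.16 in R 4.3.3 (robust, without covariates), adjusting by Benjamini-Hochberg across them. SE is the absolute log2 fold change divided by the square root of F. Log2 CPM used a prior count of 2. Levels relative to markers were compared by exact permutation of the 70 assignments. Alternatives were other scalings, DESeq2 1.42.0, limma voom (limma 3.58.1), 2 filters, 2 thresholds, a replicate block, a clock score term, left-out libraries and, chosen after seeing the data, marker lists without Pvalb or without Aqp4 and Calb1. Data were simulated with 50 of 15228 genes changed at each fold tried. On them the fit recovered 38% of 1.5-fold and 82% of 2-fold changes, and 6.55% of its calls were false. A factor that did not pass is therefore not shown to be unchanged. The share of genes changed there was smaller than the 11.9% called here, so that these shares are not rates for the factors. Libraries of 1 group differed by more than counting noise. Counting precision assumes independent molecules, which reads without molecular identifiers are not.

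The factors, lists, segments and settings were chosen with earlier results of these data known. All 35 factors may be named and, of each other list, the 4 genes of smallest adjusted p; Slc12a1, Aqp2, Pvalb, Aqp4, Calb1, Id4 and Hnf4a were named after their values were seen, and genes on the other strand for their overlap.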

Additional observations from a re-analysis of the deposited data

Results flagged for a closer look

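In 72 groups of 4 libraries (35 factors and Tfap2b, in each label), 6 had 1 library far from the other 3, by its gap to the nearest as a share of the range, where chance gives about 1 in 20. Knockout 1 was the lowest for Irx1 (0.8584) and for Emx1 (0.902), with 42.3 and 36.4 CPM. Knockout 2 was the highest for Pax2 (0.8488) and for Tfap2b (0.8887), with 112 and 266 CPM. Wildtype 2 was the lowest for Dmrt2 (0.834), with 7.96 CPM, and wildtype 1 the lowest for Cux1 (0.8328), with 189 CPM.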

How the results depend on the processing

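No called factor changed direction in any of the 18 alternative settings. The calls of Prox1 and Lhx1 held in all 18, those of Emx1, Gata2, Gata3 and Ehf ended in 1, the clock score as a term, and those of the other 5 ended in 5 or more. Rising factors numbered 8. They were 10 with library totals and at a threshold of 0.10, 9 with DESeq2 and 7 with limma voom. With a replicate block they were 5, with the clock score as a term 0 and without both knockout 1 and knockout 4 they were 5. At a threshold of 0.01 they were 3, and 4 to 8 when 1 library was left out. Falling factors numbered 3, with 4 under DESeq2 and at a threshold of 0.10 and 3 in every other setting. All genes called numbered 1817; they were 1094 with a replicate block, 706 with the clock score as a term, 912 without both knockout 1 and knockout 4, 706 at a threshold of 0.01, 2850 at a threshold of 0.10, 2417 with DESeq2 and 1076 to 1940 when 1 library was left out. With library totals 76.5% of calls were upward, against 52.2%. The other 47 factors gave 11 calls; 4 with the clock score, 7 without both knockout 1 and knockout 4, and 7 at 0.01. Values that passed no threshold turned sign by more than their SE for Mecom (0.017) and Tbx2 (0.034) with library totals and for Tshz3 (-0.16) without both knockout 1 and knockout 4; the cause was not tested. Of 273 recalculated levels relative to markers, 256 moved by less than their spread; of those whose groups had not overlapped, 1 turned sign, Ehf without Aqp4 and Calb1 (-0.00036). Same-numbered libraries did not deviate together (correlations -0.22, -0.21, -0.05 and 0.16), 1 of the 8, knockout 4, correlated best with its own number, and nothing in the labels ties a number to a litter or day, so that the replicate block is no paired result. Counts of 18 to 37 limit Irx2.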
